A study of Homo sapiens with 27 samples.

Results

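The genes described here encode the chains of collagen. They are all genes on the array whose single platform symbol has the form COL, a type number, A and a chain number, with antisense transcripts and pseudogenes left out. They came to 43 of the 19775 genes with one symbol and to 112 of the 54613 probe sets tested, with between 1 probe set (8 genes) and 8 probe sets (COL6A1) per gene. The rule itself uses no measured value, but it was proposed with earlier results of these data known.

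Human cancer cells of 3 established lines were used, WM793B from a melanoma, SK-OV-3 from an ovarian adenocarcinoma and PC-3 from a prostate cancer. Each line was cultured for 72 h under chronic hypoxia (1% oxygen throughout), under cycling hypoxia (periods of 4 h or 12 h at 1% oxygen alternating with 21% oxygen) or under control conditions in ambient oxygen, with no further agent or genetic change in any group. The cycling scheme as described ended with reoxygenation at 21% oxygen, whereas chronic cultures ended at 1%. Cycling, the last reoxygenation and the total time at 1% oxygen therefore cannot be told apart. The 9 groups had 3 biological replicates each, and total RNA was hybridized to 27 whole-transcriptome arrays. Cells were grown on glass, without stroma and as single lines, and the carcinoma lines received other media and more serum than WM793B cells, so cell line and medium cannot be told apart.

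Collagen chains are assembled in the endoplasmic reticulum, where prolyl and lysyl residues are hydroxylated by enzymes that need oxygen before chains wind around each other into a helix. Which chains meet decides the collagen: type I usually combines α1(I) and α2(I), type V regulates the diameter of type I fibrils, type IV forms the mesh of basement membranes, and type VI forms beaded microfibrils. Type VII makes the anchoring fibrils that hold epithelium to stroma, and type XVIII carries endostatin at its end. In tumours collagen is laid down mostly by fibroblasts, but carcinoma and melanoma cells make chains of their own. HIF, the transcription factor stabilised at low oxygen, is known to drive genes of collagen hydroxylases and crosslinking enzymes.

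The sequences just upstream of the start site are shown for COL5A1, which rose under chronic hypoxia in all 3 lines, COL6A2 and COL7A1, which rose in SK-OV-3 cells under both conditions, and COL23A1, which left the floor of the array there. Each is 250 bases long, from RefSeq on GRCh38.p14, printed 5′ to 3′ on the strand of the gene and in lower case. Capitals mark motifs found on either strand: the HIF core with the letters ACGTG, a second HIF core with the letters GCGTG, the GC box, spelled GGGCGG, and the TATA box, spelled TATAAA. A motif on the opposite strand appears here as its complement read backwards, for example TTTATA for the TATA box. Different motifs could share bases, and ACGTG overlaps its own complement where a C precedes it; in COL5A1 a GC box and the HIF core stand side by side.
COL5A1, chr9:134641553-134641802, plus strand: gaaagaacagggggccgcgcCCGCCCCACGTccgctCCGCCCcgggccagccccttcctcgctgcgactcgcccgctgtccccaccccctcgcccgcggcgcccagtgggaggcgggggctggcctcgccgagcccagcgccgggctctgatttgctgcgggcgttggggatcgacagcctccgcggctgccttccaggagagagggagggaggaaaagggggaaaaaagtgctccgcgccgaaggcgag
COL6A2, chr21:46097862-46098111, plus strand: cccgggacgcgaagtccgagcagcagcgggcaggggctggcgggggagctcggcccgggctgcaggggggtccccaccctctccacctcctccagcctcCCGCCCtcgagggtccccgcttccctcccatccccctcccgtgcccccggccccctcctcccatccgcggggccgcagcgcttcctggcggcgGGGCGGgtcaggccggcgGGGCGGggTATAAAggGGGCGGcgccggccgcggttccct
COL7A1, chr3:48595330-48595579, minus strand: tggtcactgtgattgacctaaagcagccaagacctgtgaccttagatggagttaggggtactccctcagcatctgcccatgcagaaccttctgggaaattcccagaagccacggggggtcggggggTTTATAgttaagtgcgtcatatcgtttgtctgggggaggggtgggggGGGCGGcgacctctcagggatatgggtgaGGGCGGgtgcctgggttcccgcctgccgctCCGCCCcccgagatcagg
COL23A1, chr5:178590394-178590643, minus strand: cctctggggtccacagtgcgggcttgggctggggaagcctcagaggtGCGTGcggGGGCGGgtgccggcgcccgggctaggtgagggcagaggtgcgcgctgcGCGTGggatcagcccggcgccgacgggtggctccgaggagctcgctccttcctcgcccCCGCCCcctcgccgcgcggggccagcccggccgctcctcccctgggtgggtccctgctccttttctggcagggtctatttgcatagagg
The COL5A1 window held 1 ACGTG and 2 GC boxes, and the COL23A1 window 2 GCGTG and 2 GC boxes. The COL6A2 window held 4 GC boxes and 1 TATA box, and the COL7A1 window 3 GC boxes and 1 TATA box, and neither held a HIF core. Over 35116 windows of 250 bases across genes, 18.5% held ACGTG, 32.2% GCGTG, 43.2% either core, 42.6% the GC box and 10.7% the TATA box. Over the 43 windows of 31 collagen genes with a match, 16.3% held ACGTG, 34.9% GCGTG, 41.9% either core, 55.8% the GC box and 16.3% the TATA box, a description of letters and not of binding.

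Type IV chains are encoded in pairs that start next to each other and run apart, so one stretch lies upstream of both genes. The stretch between COL4A1 and COL4A2 has 126 bases and that between COL4A4 and COL4A3 has 135 bases; COL4A6 and COL4A5 form such a pair too. The stretches are shown because the values of both genes of a pair are set side by side below.
COL4A1 to COL4A2, chr13:110307158-110307283, plus strand: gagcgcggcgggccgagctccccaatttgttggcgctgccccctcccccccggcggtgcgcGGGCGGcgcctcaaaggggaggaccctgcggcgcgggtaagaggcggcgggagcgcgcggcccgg
COL4A4 to COL4A3, chr2:227164489-227164623, plus strand: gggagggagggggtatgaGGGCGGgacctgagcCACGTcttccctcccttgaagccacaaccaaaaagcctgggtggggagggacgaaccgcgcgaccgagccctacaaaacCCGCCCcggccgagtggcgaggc
The gap of the first pair held 1 GC box, and that of the second 1 ACGTG and 2 GC boxes.

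Values are log2 GC-RMA signals, an array measure corrected for background and base composition. The lowest value in the data is 2.28, called the floor below, and a signal above 5 was counted as above noise. The brightest probe set stood for its gene, and a gene is said to have changed if limma's moderated test, fitted over all probe sets of a line, gave a Benjamini-Hochberg adjusted p under 0.05, the fold was 2 or more and the brighter group mean lay above 5. The levels of different genes are not compared, since probe sets differ in how well they bind. As the sample is a bulk culture, fewer cells of a kind and less RNA per cell cannot be told apart.

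Known marker genes were read on all arrays. Within a group the lowest correlation between arrays was 0.994. All 4 epithelial markers (KRT8, KRT18, EPCAM and CDH1) were above noise in both carcinoma lines and none in WM793B cells. Of 6 melanocyte markers, S100B, SOX10 and MITF were above noise in WM793B cells, but MLANA, PMEL and TYR lay at or close to the floor there. MITF was above noise in every group of the other lines too, and averaged 8.38 in control WM793B cells, against 9.26 in control SK-OV-3 and 7.66 in control PC-3 cells, while S100B and SOX10 were near the floor in both carcinoma lines. Of 6 hypoxia marker genes, 5 were measured, and ADM, ANKRD37, NDRG1 and VEGFA rose under chronic hypoxia in every line. The remaining one, EGLN3, rose in SK-OV-3 cells alone (7.13 under chronic hypoxia, against 2.67 in the control). It stayed below noise and did not pass the test in PC-3 cells (2.79 against 2.59) and WM793B cells (3.00 against 2.66).

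Above noise in at least one group were 26 of the 43 genes. The other 17, COL1A2, COL6A5, COL6A6, COL8A2, COL9A1, COL9A2, COL10A1, COL11A1, COL11A2, COL14A1, COL19A1, COL20A1, COL21A1, COL24A1, COL25A1, COL26A1 and COL28A1, had group means between 2.28 and 4.82 over their 36 probe sets. In the control condition 17 genes were above noise in PC-3 cells, 12 in SK-OV-3 cells and 19 in WM793B cells, and 9 were above noise in all of them.

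**Figure D1:**
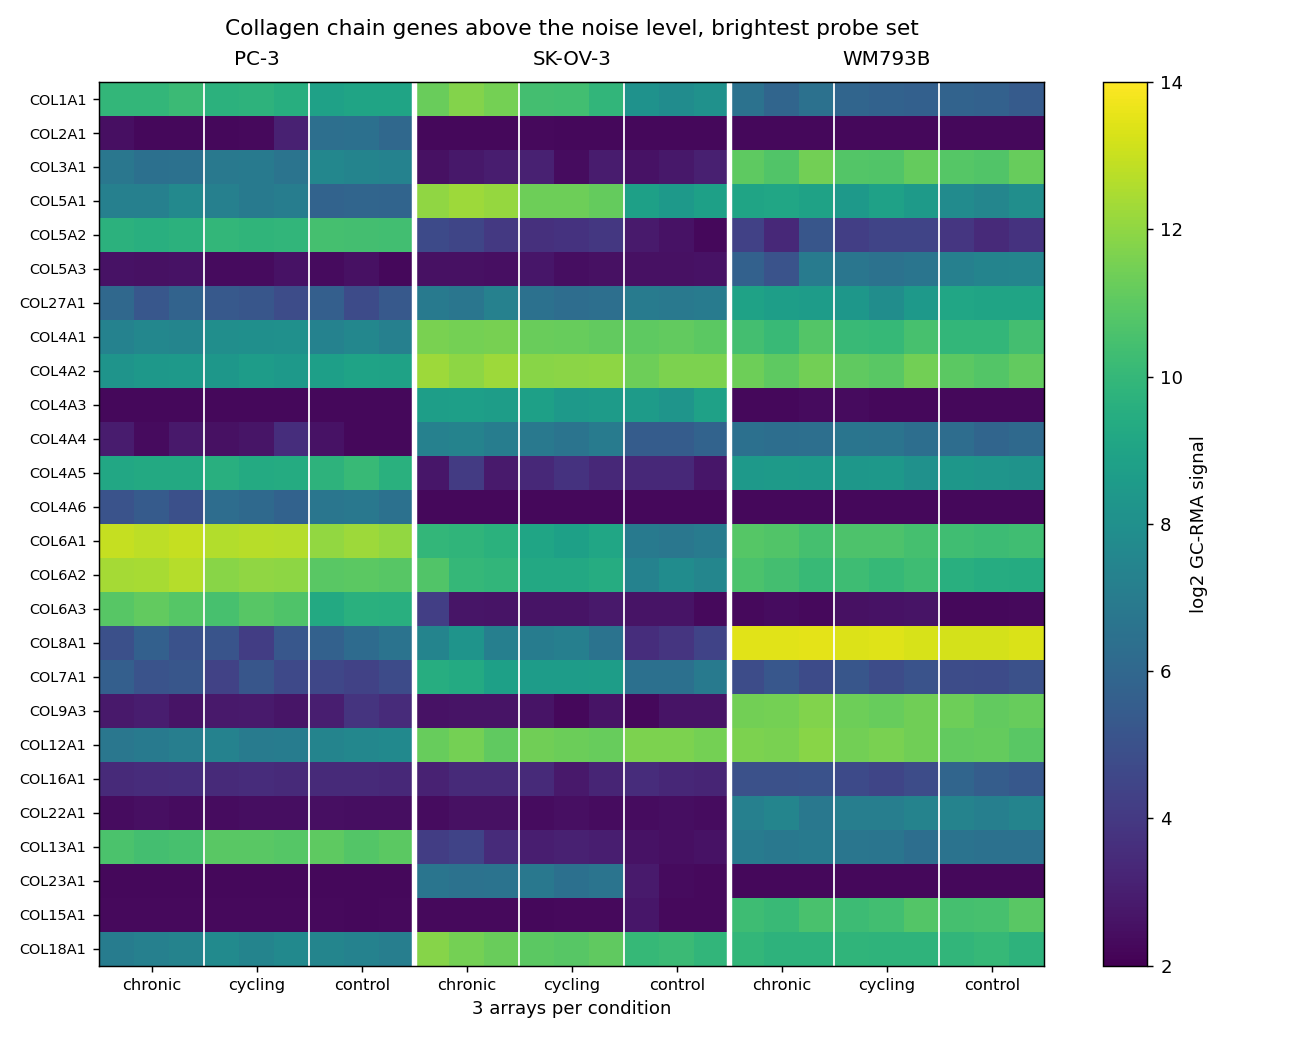
Signal of the 26 collagen chain genes above noise on each of the 27 arrays, as log2 GC-RMA signal of the brightest probe set, with genes as rows and arrays as columns grouped by line and condition. Rows can be compared along their length but not with each other. In SK-OV-3 cells COL1A1, COL5A1, COL6A1, COL6A2, COL7A1, COL8A1 and COL23A1 are brighter under chronic and cycling hypoxia than in the control.

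In SK-OV-3 cells collagen genes rose under hypoxia and, by the brightest probe set of each, none counted as fallen. Under chronic hypoxia 9 of 43 rose (20.9%), against 4.43% of all genes, and 0 fell, against 3.02%. Under cycling hypoxia 8 of 43 rose (18.6%), against 2.78%, and 0 fell, against 1.46%. By limma on the brightest probe set without a limit on the fold, 11 were higher and 0 lower under chronic hypoxia, against 10.5% and 12.9% of all genes. Dimmer probe sets of a gene, such as those of COL12A1, do not enter these counts. At an unadjusted p under 0.05, 1 gene above noise was lower under chronic hypoxia (COL12A1) and 2 under cycling hypoxia (COL12A1 and COL27A1). No share over all genes is given for this looser limit. Among the 14 collagen genes above noise by their mean over the line's arrays, the median log2 fold change was 2.13 under chronic and 1.49 under cycling hypoxia. Over all genes above noise it was -0.07 and 0.01. COL8A1 and COL23A1, with control means of 3.94 and 2.51, are among the 14 only through their hypoxia arrays. These medians are therefore partly set by that filter. The 8 genes that rose under cycling hypoxia were all among the 9 of chronic hypoxia; the 2 comparisons share their control arrays.

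Of the fibrillar chains 2 rose in both conditions. COL5A1, the α1 chain of type V collagen, had 12.03, 12.25 and 12.12 under chronic hypoxia and 11.34, 11.34 and 11.18 under cycling hypoxia, against 8.82, 8.50 and 8.82 in control SK-OV-3 cells. The groups did not overlap, and every array of chronic hypoxia lay above every array of cycling hypoxia. The gene rose by 3.42 ± 0.11 on the log2 scale (SE; 10.7-fold, adjusted p = 1.02e-05) under chronic and by 2.58 ± 0.11 (5.96-fold, adjusted p = 7.79e-05) under cycling hypoxia. COL1A1, the α1 chain of type I collagen, had 11.27, 11.78 and 11.50 under chronic and 10.44, 10.35 and 9.89 under cycling hypoxia, against 8.10, 7.83 and 8.05 in the control. It rose 11.5-fold (log2 3.52 ± 0.19, adjusted p = 6.25e-05) under chronic and 4.68-fold (log2 2.23 ± 0.19, adjusted p = 0.000791) under cycling hypoxia. The usual partner of this chain, α2(I), was not above noise: the 3 probe sets of COL1A2 stayed between 2.28 and 3.14 on all 27 arrays. COL5A2, a partner of α1(V), had group means of 4.40 under chronic and 3.78 under cycling hypoxia, against 2.57 in control SK-OV-3 cells, all below noise.

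Both chains of type VI microfibrils that were above noise rose too. COL6A1 had 9.92, 9.87 and 9.67 under chronic and 9.03, 8.83 and 9.09 under cycling hypoxia, against 6.94, 6.75 and 7.00 in the control. That was 7.60-fold (log2 2.93 ± 0.10, adjusted p = 1.62e-05) and 4.25-fold (log2 2.09 ± 0.10, adjusted p = 0.000142). COL6A2, which neighbours COL6A1 on chromosome 21, had 10.74, 9.99 and 9.89 under chronic and 9.27, 9.23 and 9.42 under cycling hypoxia, against 7.33, 7.82 and 7.53 in the control, or 6.26-fold (adjusted p = 0.000575) and 3.35-fold (adjusted p = 0.0054). Type VI collagen is assembled from α1, α2 and an α3-like chain, and none of the genes for that chain was above noise here. COL6A3 had group means of 3.17 under chronic and 2.70 under cycling hypoxia, against 2.51 in the control, and COL6A5 and COL6A6 were below noise in every group.

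COL7A1, whose product forms anchoring fibrils, had 9.46, 9.35 and 8.82 under chronic and 8.65, 8.61 and 8.68 under cycling hypoxia, against 6.45, 6.44 and 6.93 in the control. It rose 6.09-fold (log2 2.61 ± 0.20, adjusted p = 0.000285) and 4.12-fold (log2 2.04 ± 0.20, adjusted p = 0.00144). COL8A1, a short-chain network collagen of vessel walls and cornea, had 7.41, 8.19 and 7.18 under chronic and 7.06, 7.16 and 6.55 under cycling hypoxia, against 3.58, 3.86 and 4.40 in the control. Because the control lay below noise, its rise is given as a bound with the control set at 5: at least 6.04-fold under chronic (adjusted p = 0.000614) and at least 3.79-fold under cycling hypoxia (adjusted p = 0.00249).

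COL23A1, a transmembrane collagen that cells can also shed, was above noise under hypoxia and near the floor in the control. It had 6.68, 6.51 and 6.59 under chronic and 6.79, 6.45 and 6.63 under cycling hypoxia, against 2.88, 2.35 and 2.30 in the control. The bound was at least 3.02-fold under chronic (adjusted p = 2.75e-05) and at least 3.08-fold under cycling hypoxia (adjusted p = 8.06e-05). On all 18 arrays of the other lines COL23A1 read 2.28. The other transmembrane chain measured with a probe set near noise, COL13A1, had group means of 4.03 under chronic and 3.04 under cycling hypoxia, against 2.57 in the control.

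**Figure D2:**
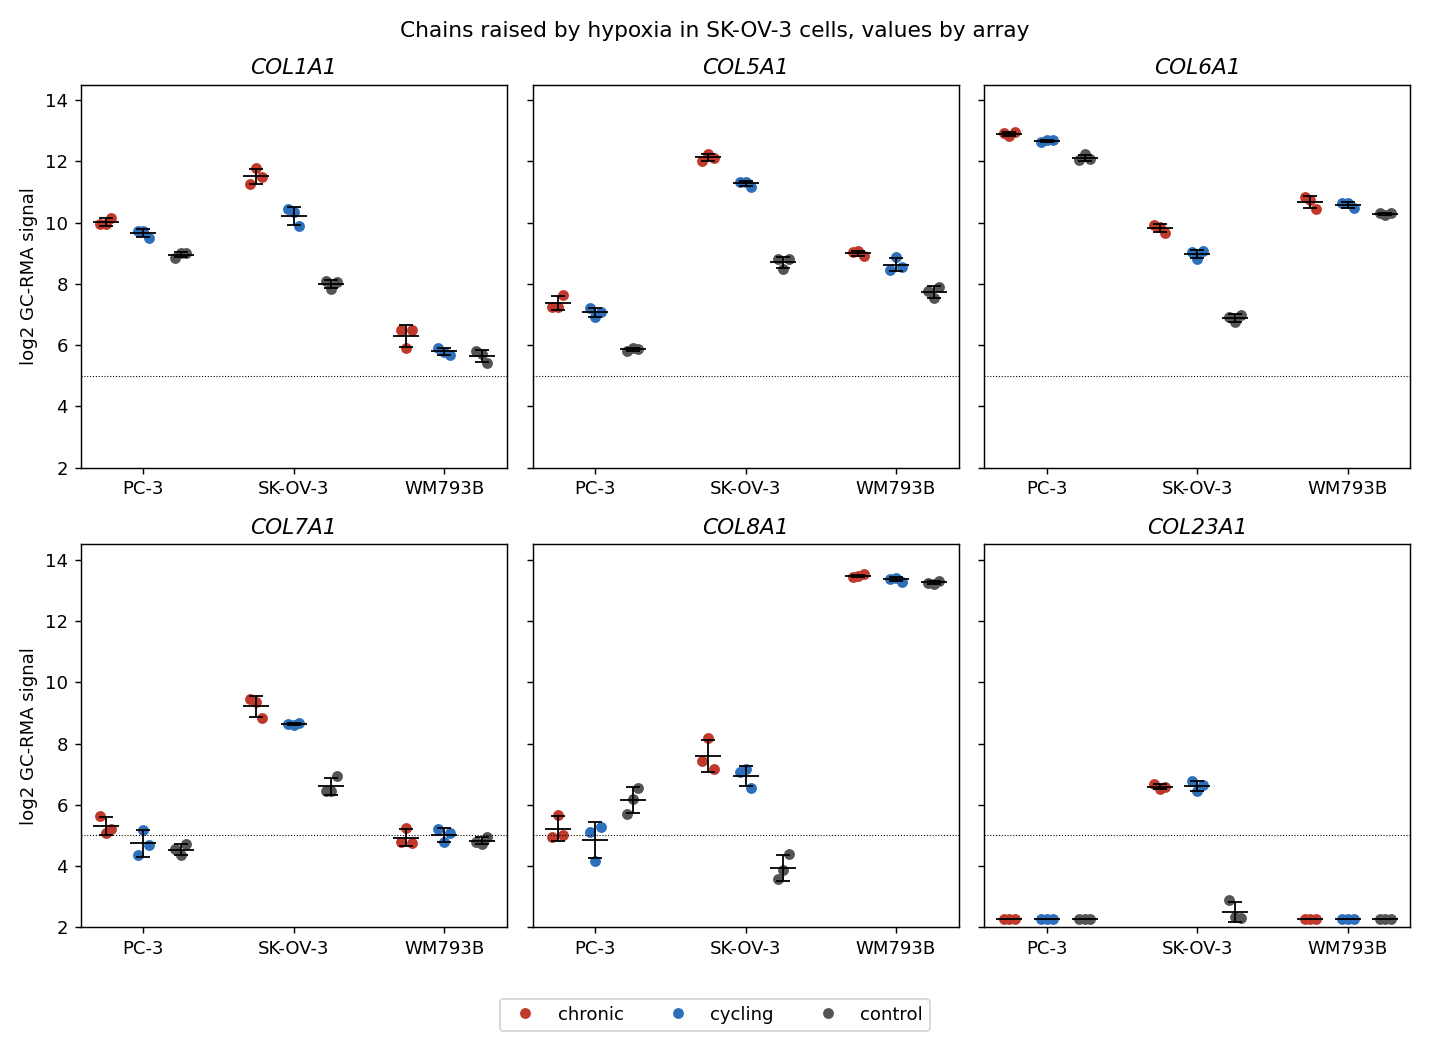
Signal on each array (points) of 6 collagen genes that rose in SK-OV-3 cells, by line and condition, as log2 GC-RMA signal, with the group mean and SD (n = 3) in black and the noise level of 5 dotted. In SK-OV-3 cells every point of chronic and cycling hypoxia lies above the control points; in PC-3 and WM793B cells COL7A1 stays near the noise level and COL23A1 at the floor.

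Endostatin's parent gene and the type IV genes changed less. COL18A1 had 11.82, 11.48 and 11.27 under chronic and 10.97, 10.88 and 11.05 under cycling hypoxia, against 10.06, 10.20 and 9.89 in control SK-OV-3 cells. It rose 2.78-fold under chronic hypoxia (adjusted p = 0.000857), whereas under cycling hypoxia the 1.89-fold difference (adjusted p = 0.00988) stayed under the 2-fold limit. COL4A4 had 7.26, 7.38 and 7.10 under chronic and 6.85, 6.62 and 6.98 under cycling hypoxia, against 5.47, 5.47 and 5.82 in the control. It rose 3.16-fold (adjusted p = 0.000393) and 2.34-fold (adjusted p = 0.0024).

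COL4A3, which shares the 135-base stretch with COL4A4 and whose chain joins with α4(IV) and α5(IV) in the basement membranes of kidney and lung, did not pass the test in SK-OV-3 cells. It had 8.74, 8.75 and 8.67 under chronic and 8.81, 8.43 and 8.58 under cycling hypoxia, against 8.59, 8.23 and 8.85 in the control, and these overlapped. The remaining chain of that mesh was below noise, with COL4A5 at 2.74, 4.11 and 2.87 under chronic and 3.38, 3.76 and 3.38 under cycling hypoxia, against 3.38, 3.38 and 2.74 in the control. COL4A1 and COL4A2, the common type IV chains, had log2 fold changes of 0.49 ± 0.05 (adjusted p = 0.000969) and 0.63 ± 0.10 (adjusted p = 0.00656) under chronic hypoxia, both under 2-fold.

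**Figure D3:**
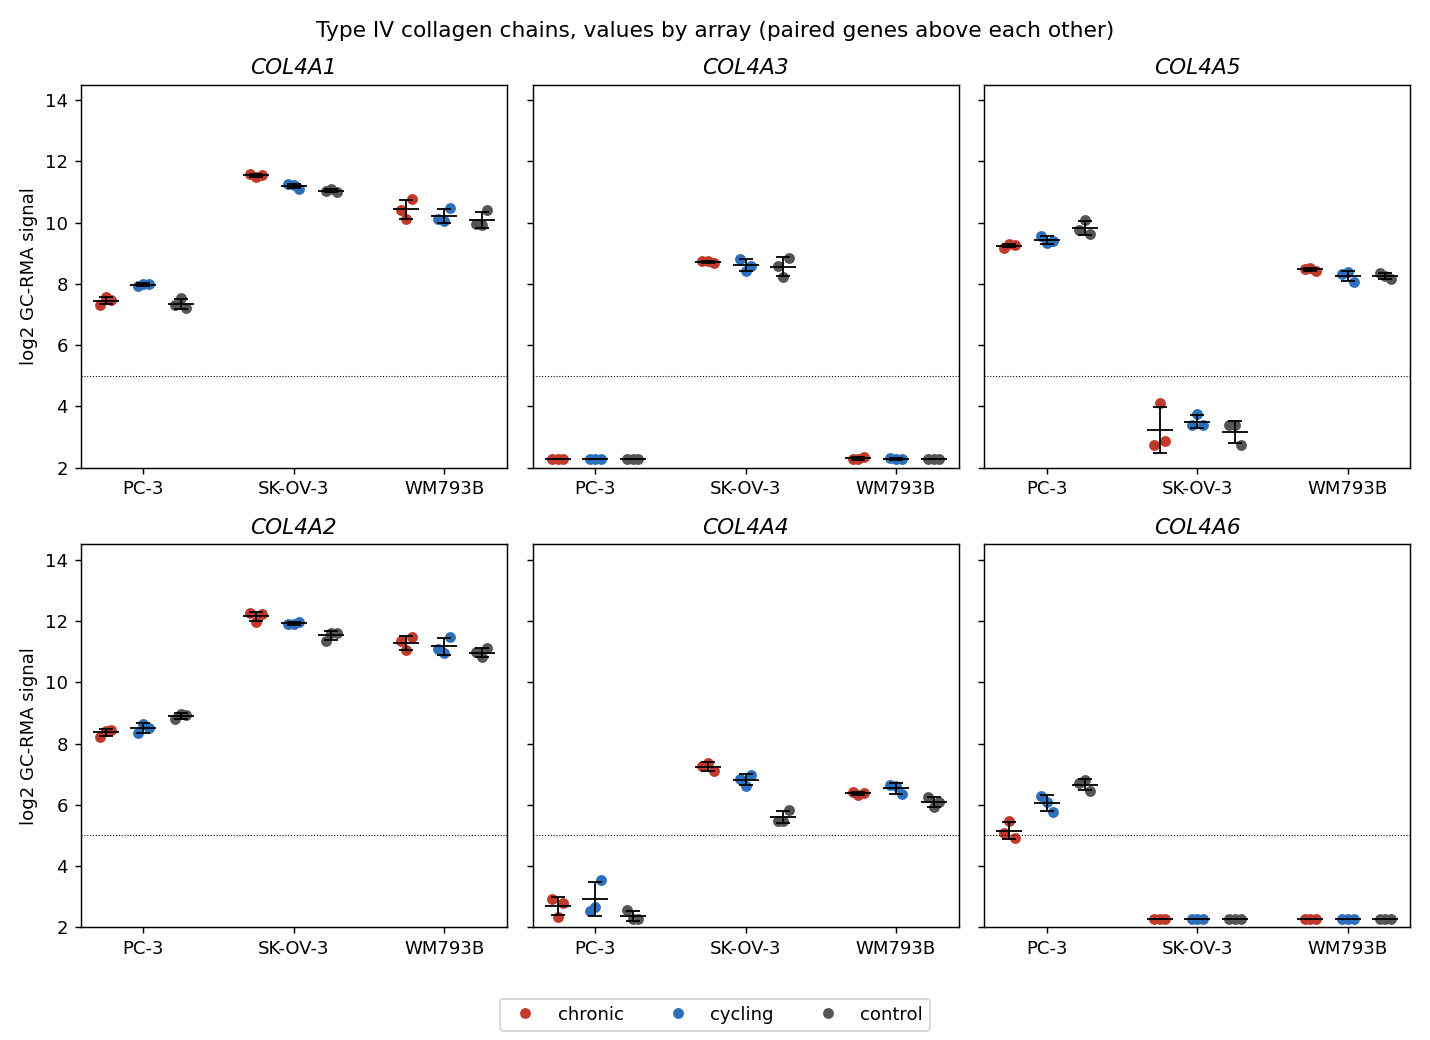
Signal on each array (points) of the 6 type IV collagen genes by line and condition, as log2 GC-RMA signal, with the group mean and SD (n = 3) in black and the noise level of 5 dotted. Genes that start next to each other stand one above the other: COL4A3 is above noise only in SK-OV-3 cells, where its conditions overlap, while COL4A4 is above noise in SK-OV-3 and WM793B cells and rises in SK-OV-3 cells.

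Cycling and chronic hypoxia were also compared with each other. In SK-OV-3 cells 1 gene differed at the 2-fold limit, COL1A1, which was lower under cycling hypoxia (log2 -1.29 ± 0.19, adjusted p = 0.00734), against 1.59% of all genes lower. Without that limit 4 genes above noise were lower under cycling hypoxia, against 5.99% of all genes, and 0 were higher, against 8.26%. The 4 were COL1A1, COL4A1 (log2 -0.34, adjusted p = 0.00809), COL5A1 (log2 -0.85, adjusted p = 0.00426) and COL6A1 (log2 -0.84, adjusted p = 0.00431). At an unadjusted p under 0.05, for which no share over all genes is given, 0 were higher as well. COL23A1 differed by only 0.03 on the log2 scale between the conditions.

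Several of these genes have more than 1 probe set. Of COL5A1, all 3 probe sets rose in SK-OV-3 cells under chronic hypoxia, with log2 fold changes from 3.42 to 3.90, and both probe sets of COL6A2 and of COL7A1 rose as well. Of COL6A1, 5 of 8 probe sets rose (log2 1.45 to 2.93, in 4 of them against a control below noise) and the other 3 stayed under 3. Of COL1A1, 2 of 5 probe sets rose (3.52, and 3.93 against a control below noise), 2 were below noise, and the last, with 5.80 under chronic hypoxia and 5.35 in the control, had a log2 fold change of 0.45 (adjusted p = 0.184). COL8A1 and COL23A1 rest on 1 probe set above noise each. With the mean of all probe sets in place of the brightest one, COL8A1 and COL4A4 no longer counted as changed in either condition, nor did COL6A1 under cycling hypoxia (log2 0.95) or the difference of COL1A1 between cycling and chronic hypoxia (log2 -0.75).

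**Figure D4:**
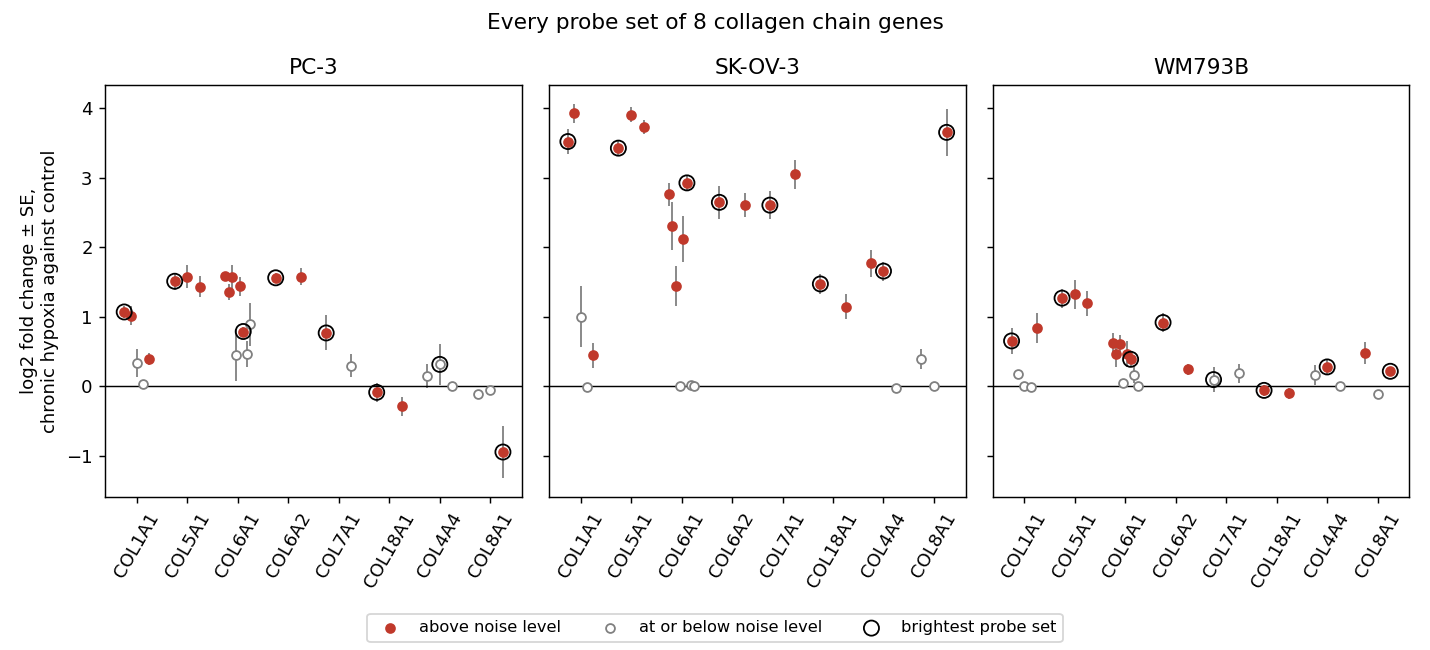
Log2 fold change of chronic hypoxia against control (± SE) for every probe set of 8 collagen genes in each line, filled where the brighter group mean is above 5 and ringed for the brightest probe set of a gene. In SK-OV-3 cells the filled probe sets of COL5A1 lie between 3.42 and 3.90 and those of COL6A1 between 1.45 and 2.93; in PC-3 cells the ringed probe set of COL6A1 is the lowest of its 5 filled ones.

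A fibroblast gene moved with these chains in SK-OV-3 cells. LUM (lumican), which binds collagen fibrils and is both a fibroblast marker and a matrix gene here, averaged 7.40 under chronic and 5.90 under cycling hypoxia, against 3.67 in the control, at least 5.29-fold (adjusted p = 0.000331) and at least 1.87-fold (adjusted p = 0.00471). Of the 6 fibroblast markers 1 was above noise in each hypoxia group and 0 in the control. The log2 of their summed signal ranged from 7.37 to 8.21 under chronic and from 6.28 to 6.69 under cycling hypoxia, against 5.48 to 5.73 in the control. The other 5 were below noise in every SK-OV-3 group: DCN averaged 2.29, FAP 2.41 to 2.44, PDGFRB 2.35 to 2.36, THY1 3.52 to 3.56 and PDGFRA 2.60 to 3.02. All 4 epithelial markers stayed above noise, with a log2 of their summed signal of 13.1 to 13.2 under chronic hypoxia, against 12.7 to 12.9 in the control. The part of LUM and of these lists in the collagen values was not tested.

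In PC-3 cells the type VI chains COL6A2 and COL6A3 and the fibrillar chains COL5A1 and COL1A1 rose under chronic hypoxia, while the fibrillar chain COL2A1 and the type IV chain COL4A6 fell. Under chronic hypoxia 4 of 43 genes rose, against 3.52% of all genes, and 2 fell, against 6.45%. Under cycling hypoxia 3 rose, against 1.75%, and 1 fell, against 1.61%; these 4 were all among the 6 of chronic hypoxia. Over the 16 collagen genes above noise by their mean over the line's arrays, the median log2 fold change was -0.25 under chronic and -0.07 under cycling hypoxia. Over all genes above noise it was -0.15 and -0.02. COL2A1, which fell to near the floor, is not among the 16. Between cycling and chronic hypoxia 0 changed, against 1.73% of all genes. At an unadjusted p under 0.05, 9 genes above noise differed, 5 higher and 4 lower under cycling hypoxia. That count comes without a share over all genes and is not read as a result.

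All parts of the type VI trimer were above noise in PC-3 cells. COL6A2 had 12.40, 12.42 and 12.66 under chronic and 11.88, 12.00 and 11.95 under cycling hypoxia, against 10.92, 10.97 and 10.91 in the control, a rise of 2.95-fold (adjusted p = 1.31e-05) and 2.01-fold (adjusted p = 0.000214). COL6A3, the α3 chain, had 10.87, 11.13 and 10.83 under chronic and 10.49, 10.90 and 10.71 under cycling hypoxia, against 9.29, 9.64 and 9.59 in the control, or 2.71-fold (adjusted p = 0.00035) and 2.29-fold (adjusted p = 0.00171). COL6A1 was higher on every hypoxia array but under 2-fold by its brightest probe set (log2 0.79 ± 0.06, adjusted p = 9.46e-05), while 4 other probe sets rose by log2 1.36 to 1.59. COL6A2 under cycling hypoxia stood at the limit and fell short of it without cycling replicate 2 (log2 0.98) or without control replicate 3 (log2 1.00). With the mean of all probe sets COL6A1 counted as changed under chronic hypoxia (log2 1.07), and COL1A1 (log2 0.57) and COL4A6, described next, did not.

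Among the fibrillar chains COL5A1 had 7.25, 7.24 and 7.63 under chronic and 7.21, 6.92 and 7.07 under cycling hypoxia, against 5.80, 5.91 and 5.87 in control PC-3 cells. It rose 2.85-fold (adjusted p = 0.000128) and 2.31-fold (adjusted p = 0.000825). COL1A1 rose 2.10-fold under chronic hypoxia (adjusted p = 0.000145), and its log2 fold change of 0.71 under cycling hypoxia passed the test but not the 2-fold limit. Type III and type V partners went the other way under chronic hypoxia, without reaching 2-fold: COL3A1 had a log2 fold change of -0.86 ± 0.12 (adjusted p = 0.00167) and COL5A2 of -0.75 ± 0.05 (adjusted p = 4.23e-05).

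COL2A1, the cartilage chain, fell in both conditions. It had 2.48, 2.28 and 2.28 under chronic and 2.28, 2.31 and 3.09 under cycling hypoxia, against 6.39, 6.42 and 6.05 in the control, so the hypoxia arrays lay at or near the floor. With the dim groups set at 5, the fall was at least 2.44-fold under both chronic (adjusted p = 3.52e-05) and cycling hypoxia (adjusted p = 0.000131). COL4A6, a type IV chain of smooth muscle and some epithelia, had 5.09, 5.47 and 4.91 under chronic hypoxia, against 6.70, 6.81 and 6.46 in the control, a fall of 2.82-fold (adjusted p = 0.00109). Its head-to-head neighbour COL4A5 had 9.19, 9.31 and 9.27 under chronic hypoxia, against 9.78, 10.09 and 9.62 in the control, a log2 fold change of -0.57 that passed the test (adjusted p = 0.0135) but not the 2-fold limit. By their brightest probe sets COL4A1 and COL4A2 parted in direction under cycling hypoxia, both under 2-fold. Their log2 fold changes were 0.62 ± 0.09 (adjusted p = 0.00452) and -0.40 ± 0.10 (adjusted p = 0.0342). The other probe set had log2 0.71 for COL4A1 (adjusted p = 0.0649) and -0.04 for COL4A2, and neither passed the test.

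In WM793B cells, which had the most collagen genes above noise in the control, 1 collagen gene changed. Under chronic hypoxia 1 of 43 rose, against 1.99% of all genes, and 0 fell, against 3.1%; under cycling hypoxia 0 changed, against 1.1% in either direction, and between cycling and chronic hypoxia 0 changed, against 0.85%. At an unadjusted p under 0.05, 10 genes above noise were higher and 2 lower under chronic hypoxia, and 5 higher and 2 lower under cycling hypoxia. In cycling against chronic hypoxia 0 were higher and 6 lower. These unadjusted counts come without a share over all genes and are not read as a trend of the collagen genes. The gene that rose was COL5A1, with 9.03, 9.08 and 8.92 under chronic and 8.46, 8.88 and 8.55 under cycling hypoxia, against 7.78, 7.53 and 7.91 in the control. That was 2.41-fold under chronic hypoxia (adjusted p = 0.002), and under cycling hypoxia 1.85-fold (adjusted p = 0.0211). All 3 of its probe sets rose under chronic hypoxia. COL5A1 was thus the one collagen gene that rose under chronic hypoxia in each of the 3 lines.

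Other differences in WM793B cells were smaller or less even. COL6A2 had 10.62, 10.42 and 10.10 under chronic hypoxia, against 9.57, 9.43 and 9.38 in the control, 1.89-fold with an adjusted p of 0.00703. COL5A3, another type V chain, had 5.72, 5.06 and 6.99 under chronic hypoxia, against 7.24, 7.43 and 7.46 in the control. Chronic replicate 3 lay near the control and the difference (log2 -1.45 ± 0.44) did not pass the test (adjusted p = 0.0864); without that array both COL5A3 (log2 -1.99) and COL6A2 (log2 1.06) counted as changed. PDGFRA and THY1, 2 of the 4 fibroblast markers above noise in this line, fell under chronic hypoxia (2.99-fold and 2.76-fold). The others, FAP and LUM, had log2 fold changes of 0.22 and 0.04 and did not pass the test. The log2 of the summed list was 10.48 to 11.09 under chronic hypoxia, against 10.86 to 11.01 in the control. The part of these markers in the collagen values was not tested.

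**Figure D5:**
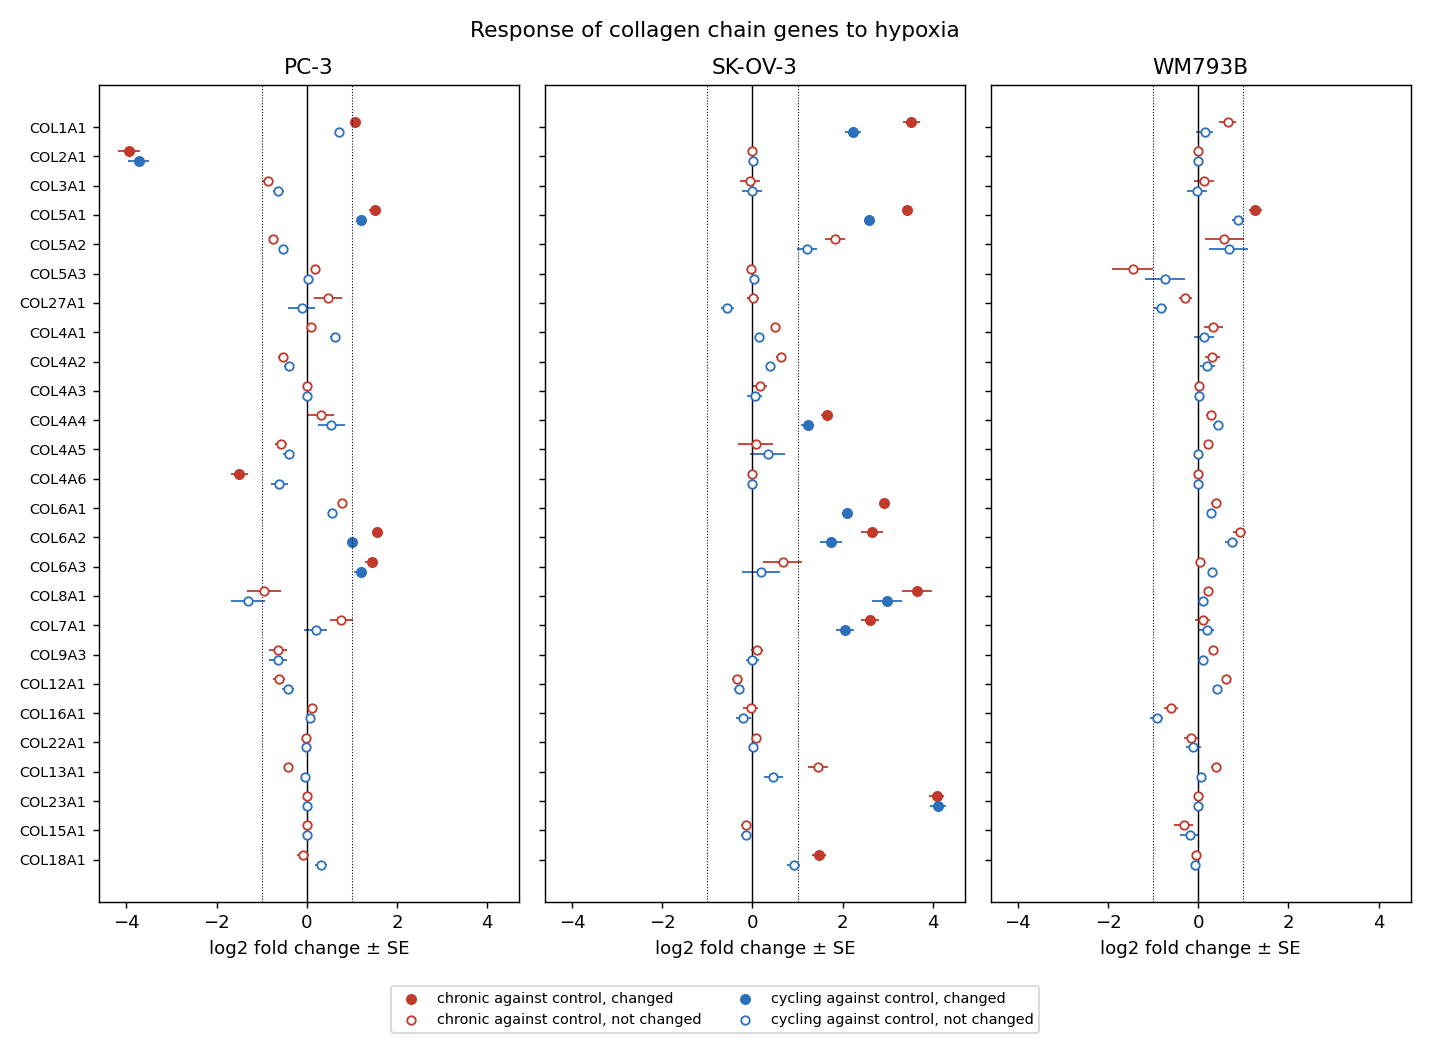
Log2 fold change (± SE, 3 arrays per group) of the 26 collagen genes above noise, for chronic (red) and cycling (blue) hypoxia against control in each line; filled points changed, and dotted lines mark 2-fold. Among genes above noise in both groups compared, points reach 3.52 for COL1A1 in SK-OV-3 cells; those of COL8A1 and COL23A1 in SK-OV-3 cells and of COL2A1 in PC-3 cells rest on a group below noise, so their place on the axis is not a measured fold. In WM793B cells only COL5A1 under chronic hypoxia is filled.

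Whether the lines answered hypoxia differently was tested directly in a fit over all 27 arrays. Under chronic hypoxia the response of 14 collagen genes was higher in SK-OV-3 than in PC-3 cells, against 8.87% of all genes, and 0 were lower, against 4.4%. In WM793B against SK-OV-3 cells 11 responses were lower, against 7.21%, and 0 higher, against 4.63%, and in WM793B against PC-3 cells 5 were higher, against 4.79%, and 2 lower, against 3.32%. Under cycling hypoxia 8 were higher in SK-OV-3 than in PC-3 cells (4.14% of all genes), 7 lower in WM793B than in SK-OV-3 cells (4.34%) and 2 higher in WM793B than in PC-3 cells (1.38%). Of the 14, 8 concern a chain above noise in both lines. Among the rest, COL2A1 and COL4A6, for example, were at the floor in SK-OV-3 cells and fell in PC-3 cells. For WM793B cells under chronic hypoxia, a chain above noise in both lines is concerned in 7 of 11 against SK-OV-3 and 2 of 7 against PC-3 cells. Under cycling hypoxia this was 4 of 8 (SK-OV-3 against PC-3), 6 of 7 (WM793B against SK-OV-3) and 1 of 2 (WM793B against PC-3). COL5A1 rose in every line under chronic hypoxia, by 1.91 ± 0.18 more on the log2 scale in SK-OV-3 than in PC-3 cells (adjusted p = 1.01e-07) and by 2.16 ± 0.18 less in WM793B than in SK-OV-3 cells (adjusted p = 2.76e-08).

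More collagen genes differed between the lines in the control condition. Of the 43 genes, 19 differed between control SK-OV-3 and PC-3 cells (9 higher in SK-OV-3, against 10.9% of all genes, and 10 lower, against 12%). Control WM793B and PC-3 cells differed in 23 (14 higher in WM793B, against 10.6%, and 9 lower, against 10.6%), and control WM793B and SK-OV-3 cells in 15 (12 higher in WM793B, against 12.5%, and 3 lower, against 11.4%).

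Chains of several kinds were higher in control WM793B cells than in another line or in both. COL8A1 averaged 13.3 in control WM793B cells, against 3.94 in SK-OV-3 and 6.16 in PC-3 cells, at least 307-fold and 138-fold higher. COL9A3, a chain known from cartilage, averaged 11.2, against 2.53 in SK-OV-3 and 3.44 in PC-3 cells (at least 74.5-fold in both), and COL15A1, an endostatin-type chain, 10.6, against 2.43 and 2.28 (at least 49.9-fold in both). COL22A1 and COL5A3 were at least 4.99-fold and at least 5.19-fold higher than in either other line. COL3A1, the α1 chain of type III collagen, averaged 10.9 in WM793B cells, against 2.81 in SK-OV-3 cells (at least 61.2-fold) and 7.42 in PC-3 cells (11.4-fold). COL27A1 was 14.1-fold and COL12A1 11.4-fold higher in WM793B than in PC-3 cells, and COL6A1 10.5-fold higher than in SK-OV-3 cells. WM793B cells were not the highest line for COL12A1 (11.1, against 11.6 in control SK-OV-3 cells). Nor were they for COL6A1 (10.3, against 12.1 in control PC-3 cells).

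PC-3 cells were marked by α2(V), α3(VI) and type XIII. Against PC-3 cells, COL13A1, a transmembrane chain, was at least 60.9-fold lower in SK-OV-3 and 21.4-fold lower in WM793B cells. COL5A2 was at least 42.9-fold lower in both, COL6A3 at least 22.7-fold, COL4A6 at least 3.15-fold and COL2A1 at least 2.44-fold. COL1A1 was 9.90-fold lower in WM793B than in PC-3 cells. In SK-OV-3 cells COL6A1 was 37.3-fold and COL6A2 10.4-fold lower than in PC-3 cells, and COL4A5 at least 28.4-fold lower, while COL12A1 was 16.5-fold and COL4A1 12.9-fold higher. COL4A3 was above noise in SK-OV-3 cells alone, where it was at least 11.8-fold higher than in either other line, and COL4A5 was at least 9.63-fold higher in WM793B than in SK-OV-3 cells. COL4A4, paired with COL4A3, averaged 6.10 in control WM793B and 5.59 in control SK-OV-3 cells, against 2.37 in PC-3 cells.

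The genes that make, trim and bind collagen were then counted in fixed lists. Of 16 enzymes and chaperones of chain folding measured, chronic hypoxia raised 7 in SK-OV-3 (4.43% of all genes), 6 in PC-3 (3.52%) and 3 in WM793B cells (1.99%), and 0 fell. Cycling hypoxia raised 4 in SK-OV-3 (2.78% of all genes), 3 in PC-3 (1.75%) and 3 in WM793B cells (0.501%), and 0 fell. The other members did not count as changed. Some passed the test but not the 2-fold limit, such as PLOD2 in WM793B cells under chronic hypoxia (log2 0.89, adjusted p = 0.00134). The list medians over members above noise under chronic hypoxia were 1.17 in SK-OV-3 cells, against -0.07 over all genes above noise, 0.62 in PC-3 cells, against -0.15, and 0.19 in WM793B cells, against -0.05. P4HA1, a prolyl hydroxylase subunit, rose under chronic hypoxia by log2 3.01 in SK-OV-3 cells, 2.04 in WM793B cells and 1.66 in PC-3 cells, and P4HA2, of the same family, by 1.37, 1.72 and 2.56. The lysyl hydroxylase PLOD1 rose in the same lines by 2.54, 2.05 and 1.28, and PLOD2 rose by 2.03 in SK-OV-3 cells and 1.66 in PC-3 cells.

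Of 13 genes of export, trimming and crosslinking, 4 rose and 1 fell in SK-OV-3 cells under chronic hypoxia (4.43% and 3.02% of all genes did), 4 rose and 1 fell in PC-3 cells (3.52% and 6.45%), and 1 rose and 1 fell in WM793B cells (1.99% and 3.1%). Under cycling hypoxia 3 rose in SK-OV-3 cells (2.78% of all genes), 3 rose and 1 fell in PC-3 cells (1.75% and 1.61%) and 1 rose in WM793B cells (0.501%). The list medians over members above noise under chronic hypoxia were 1.02 for SK-OV-3, 0.80 for PC-3 and 0.47 for WM793B cells. Over all genes above noise in the same lines they were -0.07, -0.15 and -0.05. Members were taken by their mean over the line's arrays, which partly sets these medians. LOX, BMP1 and PCOLCE, with control means of 3.52, 4.95 and 4.90 in PC-3 cells, are included there only through their hypoxia arrays. The same holds for PCOLCE2 in SK-OV-3 cells (control mean 4.01). ADAMTS3, which fell in PC-3 cells, is left out there. LOXL2, a crosslinking enzyme, averaged 12.4 under chronic and 12.0 under cycling hypoxia, against 8.62 in control SK-OV-3 cells (14.1-fold and 10.4-fold), and rose 4.42-fold under chronic hypoxia in PC-3 cells. LOX, of the same family, rose under chronic hypoxia by log2 2.23 in WM793B cells and at least 1.58-fold in PC-3 cells, where the control lay below noise. PCOLCE2, an enhancer of propeptide removal, rose at least 2.18-fold in SK-OV-3 cells and 2.98-fold in PC-3 cells, whereas ADAMTS3, which trims propeptides, fell at least 1.47-fold in PC-3 cells and 2.79-fold in WM793B cells.

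Receptors, binding matrix and degrading enzymes are short lists, and the lines were not compared over them. Of 9 receptors measured, 2 rose and 1 fell in SK-OV-3 cells under chronic hypoxia (4.43% and 3.02% of all genes did). In PC-3 cells 0 changed (3.52% of all genes rose and 6.45% fell), and in WM793B cells 0 changed (1.99% and 3.1%). The integrin chain ITGA2 rose by log2 2.07, the uptake receptor MRC2 rose by 1.24, and DDR2, a receptor kinase for fibrillar collagen, fell by 1.89. Of 8 collagen-degrading enzymes, MMP1 (log2 3.44 under chronic and 2.74 under cycling hypoxia) and MMP2 (3.28 and 2.39) rose in SK-OV-3 cells. There 4.43% of all genes rose under chronic and 2.78% under cycling hypoxia. In the other lines 0 changed. Of all genes, 3.52% rose and 6.45% fell in PC-3 cells under chronic hypoxia (1.75% and 1.61% under cycling hypoxia). In WM793B cells 1.99% rose and 3.1% fell under chronic hypoxia, and 1.1% changed under cycling hypoxia. MMP1 in PC-3 cells fell just short of the 2-fold limit under chronic hypoxia (log2 -0.9997, adjusted p = 3.13e-05). MMP14 rose there by log2 0.93 (adjusted p = 0.000834), also under the limit. Of 8 matrix genes 2 rose in SK-OV-3 cells under both conditions, LUM and SPARC (4.43% of all genes rose under chronic and 2.78% under cycling hypoxia). In PC-3 cells 1 fell under both, again SPARC (6.45% and 1.61% of all genes fell). In WM793B cells LUM and SPARC did not count as changed. SPARC, a collagen chaperone of the matrix, had a log2 fold change under chronic hypoxia of 2.24 ± 0.40 in SK-OV-3 cells (adjusted p = 0.00932). In PC-3 cells it was -3.81 ± 0.27 (adjusted p = 7.17e-05). Under cycling hypoxia the values of SPARC were 1.67 (adjusted p = 0.0442) and -2.36 (adjusted p = 0.00137).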

How the data were processed

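RNA of 27 cultures was measured on HG-U133 Plus 2.0 arrays. The authors deposited log2 values made with GC-RMA, as the submitters' processing notes name it, in one table with 1 column per array; no column was left unmapped. Values range from 2.28 to 15.5, with array medians of 2.60 to 2.66. Number of arrays, and not read depth, limits precision. Of 54675 probe sets, 62 array controls were dropped; 41091 of the rest had one symbol, 1801 several and 11721 none in the platform annotation, updated through RefSeq identifiers. Each line was fitted with limma 3.58.1 in R 4.3.3 (moderated test with trend, 9 arrays, Benjamini-Hochberg adjustment over 54613 probe sets). Line and response contrasts used 27 arrays in 9 groups. Replicates are biological according to the labels, and p-values measure the spread between cultures. Where the dimmer group lay below the noise level of 5, folds are given as bounds with that group set at 5.

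Genes were named by a rule: in each comparison up to 10 changed collagen genes with the largest change, those differing at least 8-fold between control lines, and up to 4 changed genes per pathway list. Genes paired head to head were named together. Other genes named beside them without a call, and the genes shown by sequence or in figures, were chosen after their values were seen. Members and lists were chosen with earlier results of these data known. COLGALT2, DDR1 and CA9 of the lists were not matched. Alternatives were no trend, the variation filter of the methods (1.5-fold in 20% of arrays), quantile normalization, a noise level of 4, the mean of all probe sets, a replicate block and each array left out. The replicate numbers are those of the labels. Deviations of same-numbered arrays correlated above 0.1 in every pair for WM793B cycling against chronic hypoxia (0.162, 0.106 and 0.161) and for no other comparison. Arrays with different numbers reached 0.163 in WM793B cells, so these values cannot show whether cultures were paired. The replicate block changed no call in that comparison. The test was also run on simulated data, but no result of that run is given here.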

Additional observations from a re-analysis of the deposited data

Results flagged for a closer look

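A closer look is warranted where the response of a chain differed between lines by the test of the difference itself. Over 6 contrasts 49 such responses were found, and 28 of them concern a chain above noise in both lines; these 28, a restriction chosen after the values were seen, are given here as the difference between log2 fold changes, with SE. Groups of 3 were too small for a check of single outlying arrays.

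The control of COL8A1 in SK-OV-3 cells and its mean under cycling hypoxia in PC-3 cells lay below noise, so its differences depend on a dim signal and their size is not a measured fold.

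Under chronic hypoxia, SK-OV-3 minus PC-3 gave 4.59 ± 0.43 for COL8A1, 2.45 ± 0.23 for COL1A1, 2.14 ± 0.13 for COL6A1, 1.91 ± 0.18 for COL5A1, 1.84 ± 0.30 for COL7A1, 1.56 ± 0.18 for COL18A1, 1.16 ± 0.19 for COL4A2 and 1.08 ± 0.24 for COL6A2. WM793B minus SK-OV-3 gave -3.43 ± 0.43 for COL8A1, -2.87 ± 0.23 for COL1A1, -2.53 ± 0.13 for COL6A1, -2.16 ± 0.18 for COL5A1, -1.73 ± 0.24 for COL6A2, -1.53 ± 0.18 for COL18A1 and -1.38 ± 0.29 for COL4A4. WM793B minus PC-3 gave 1.23 ± 0.16 for COL12A1 and 1.0 ± 0.28 for COL3A1. By its brightest probe set COL12A1 thus moved up in WM793B cells and down in PC-3 cells, each under 2-fold. Its other probe set above noise in PC-3 cells went up by log2 0.40 without passing the test (adjusted p = 0.314). The direction of COL12A1 in PC-3 cells thus rests on 1 probe set. COL4A2 moved up in SK-OV-3 and down in PC-3 cells, also under 2-fold.

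Under cycling hypoxia, SK-OV-3 minus PC-3 gave 4.29 ± 0.43 for COL8A1, 1.53 ± 0.13 for COL6A1, 1.52 ± 0.23 for COL1A1 and 1.37 ± 0.18 for COL5A1. WM793B minus SK-OV-3 gave -2.88 ± 0.43 for COL8A1, -2.08 ± 0.23 for COL1A1, -1.86 ± 0.30 for COL7A1, -1.79 ± 0.13 for COL6A1, -1.69 ± 0.18 for COL5A1 and -1.0 ± 0.24 for COL6A2. WM793B minus PC-3 gave 1.41 ± 0.43 for COL8A1 (adjusted p = 0.0489), where COL8A1 had 5.12, 4.16 and 5.26 under cycling hypoxia, against 5.71, 6.20 and 6.56 in control PC-3 cells. This call stood at the threshold and was lost without the trend (adjusted p = 0.0509), after quantile normalization (0.0561), with the mean of all probe sets (log2 0.63), with the replicate block (0.0956) and with 9 of the 12 arrays left out in turn (0.0699 to 0.144). Each of these responses rests on the same 3 control arrays of its line for both conditions.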

How the results depend on the processing

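Of the 29 calls on single collagen genes in the hypoxia comparisons, 164 of 172 results under other settings with all arrays kept the call, as did 172 of 174 with an array left out, and 0 turned direction. The 8 lost calls came with the mean of all probe sets of a gene, which takes in probe sets near the floor. With that mean the changed genes for cycling hypoxia of SK-OV-3 cells numbered 5 in place of 8 and between cycling and chronic hypoxia 0 in place of 1, those in WM793B cells under cycling hypoxia 1 in place of 0; responses differing under chronic hypoxia numbered 9 in place of 14 (SK-OV-3 against PC-3) and 4 in place of 7 (WM793B against PC-3), and under cycling hypoxia 5 in place of 8 (SK-OV-3 against PC-3) and 4 in place of 7 (WM793B against SK-OV-3). The variation filter gave 2 in place of 1 in WM793B cells under chronic hypoxia, adding COL5A3, and added COL8A1 to PC-3 cells under cycling hypoxia (log2 -1.31, adjusted p = 0.0243). A noise level of 4 added COL13A1 and COL5A2 to SK-OV-3 cells under chronic hypoxia, 11 in place of 9. The cycling response of WM793B against PC-3 cells gave 1 in place of 2 without the trend, after quantile normalization and with the replicate block, each time without COL8A1; the cause was not tested. No scaling moved the median of all genes by over 0.1.

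With each array left out, the genes changed ranged over 6 to 6 (chronic), 3 to 4 (cycling) and 0 to 1 (cycling against chronic) for PC-3, 9 to 9, 8 to 8 and 1 to 1 for SK-OV-3, and 1 to 3, 0 to 1 and 0 to 1 for WM793B cells. In WM793B cells the 3 came without chronic replicate 3. The other counts of 1 in place of 0 were COL4A6 in PC-3 cells (without cycling replicate 3 or chronic replicate 2), COL5A3 in WM793B cells between cycling and chronic hypoxia (without chronic replicate 3) and COL16A1 in WM793B cells under cycling hypoxia (without control replicate 3). Control differences ranged over 19 to 20, 23 to 23 and 15 to 17, chronic responses over 13 to 14, 5 to 8 and 10 to 12, and cycling responses over 8 to 9, 1 to 3 and 6 to 8 (SK-OV-3 against PC-3, WM793B against PC-3, WM793B against SK-OV-3).

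Replicate numbers were shared between groups. The deviations of arrays with the same number had r from -0.06 to 0.16 in PC-3 (median -0.01), -0.09 to 0.19 in SK-OV-3 (median -0.03) and -0.03 to 0.30 in WM793B cells (median 0.11, against -0.05 for different numbers), and passed 0.1 in every pair for WM793B cycling against chronic hypoxia alone, where 0 genes changed with and without the block. With the replicate block 17 genes differed between control WM793B and SK-OV-3 cells in place of 15, and the other counts, apart from the one above, did not move. A signal near the floor limits what can be said of the 17 chains below noise.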
